A study of Mus musculus with 3 samples.

Results

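The hotspots described here are 883 autosomal sites at which neither DMC1 nor H3K4me3 was given a homologue share in the deposited table. They were chosen as the sites outside the X that the authors ascribed to the CAST or the humanized (HUM) allele of Prdm9 and whose B6 fraction was missing for both marks. They make up 4.08% of the 21653 autosomal CAST and HUM sites (exact 95% interval 3.82% to 4.35%) and were taken from a table of 24586 sites. The animals were hybrid males from C57BL/6J (B6) and CAST/EiJ (CAST) parents that carried HUM and CAST as their pair of Prdm9 alleles. Whole testis was used, from a 10-week-old male for the DMC1 library and from an adult male for the series' H3K4me3 library; the table credits its H3K4me3 reads to Li and colleagues, and whether these are the same library is not given. Each assay has 1 library, so the spread between animals is not measured and no p-value is given. Exact intervals cover counting error only and take sites as independent, although members lay together, as described below. The read depth behind a signal or a share is unknown.

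PRDM9 is a zinc-finger methyltransferase of meiotic cells that binds DNA motifs and marks the neighbouring nucleosomes with H3K4me3. Double-strand breaks form at these places, and the recombinase DMC1 coats the single-stranded DNA of the broken ends while a partner chromatid is sought. DMC1 ChIP-seq therefore maps breaks under repair. H3K4me3 ChIP-seq maps the places that PRDM9 has marked, together with H3K4me3 peaks that are PRDM9-independent. In a hybrid, the homologue share (the part of a site's signal that comes from the B6 rather than the CAST homologue) says which parental chromosome was marked or broken. A share can only come from reads that cover a base at which the parents differ. How many such bases each site holds was not analysed here, and the headers do not say when a share was left missing. The question was whether the sites without a share are merely weak or lie together in stretches of the genome.

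Of the 883 sites, 4 had the centre of their DMC1 peak inside a RefSeq promoter window, from 250 bases before to 50 bases after an annotated start (GRCm38.p6, the build that mm10 names). That is 0.45% of the members (0.12% to 1.16%), against 61 of the 20770 sites with a share, or 0.29%. These windows are shown because they are the members whose sequence the reference tables hold. Among them are a weak HUM site on its own, and CAST and HUM sites that lay in runs of no-share sites. The sequences are those of the B6 reference, 5′ to 3′, with the 21 bases centred on the DMC1 peak in capitals.
Otol1 (chr3:70007363-70007662, + strand): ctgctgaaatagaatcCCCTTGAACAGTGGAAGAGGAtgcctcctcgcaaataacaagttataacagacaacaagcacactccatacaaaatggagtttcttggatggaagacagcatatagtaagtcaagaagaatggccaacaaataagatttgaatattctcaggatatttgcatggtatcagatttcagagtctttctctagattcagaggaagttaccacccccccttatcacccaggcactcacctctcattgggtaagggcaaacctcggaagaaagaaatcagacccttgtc
1700019J19Rik (chr9:14089827-14090126, + strand): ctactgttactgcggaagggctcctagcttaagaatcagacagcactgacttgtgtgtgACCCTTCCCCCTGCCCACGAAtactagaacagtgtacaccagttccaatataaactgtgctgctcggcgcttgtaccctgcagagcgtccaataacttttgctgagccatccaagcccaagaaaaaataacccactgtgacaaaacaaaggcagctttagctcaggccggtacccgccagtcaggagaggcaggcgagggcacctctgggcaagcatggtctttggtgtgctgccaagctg
Gm32796 (chr16:29977820-29978119, + strand): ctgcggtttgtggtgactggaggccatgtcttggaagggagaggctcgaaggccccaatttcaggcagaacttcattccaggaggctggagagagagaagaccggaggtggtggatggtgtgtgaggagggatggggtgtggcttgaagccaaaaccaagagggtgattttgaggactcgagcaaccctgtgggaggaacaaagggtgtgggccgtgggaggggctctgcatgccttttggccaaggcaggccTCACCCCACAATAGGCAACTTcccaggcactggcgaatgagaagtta
Gm1604b (chr17:7025293-7025592, + strand): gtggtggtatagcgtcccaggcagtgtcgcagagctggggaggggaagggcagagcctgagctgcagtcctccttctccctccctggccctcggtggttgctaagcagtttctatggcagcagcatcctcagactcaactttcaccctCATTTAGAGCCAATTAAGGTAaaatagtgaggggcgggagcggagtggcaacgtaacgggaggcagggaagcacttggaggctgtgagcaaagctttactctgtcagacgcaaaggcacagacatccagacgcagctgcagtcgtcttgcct
The Otol1 window, upstream of the gene for otolin of the inner ear, held a HUM site on its own with a DMC1 signal of 9.37 and an H3K4me3 enrichment of 1.32, both in the authors' units. The 1700019J19Rik and Gm32796 windows, at starts of non-coding RNAs, held CAST sites with DMC1 of 18.8 and 41.3 and H3K4me3 of 24.2 and 10.8. The Gm1604b window held a HUM site with DMC1 of 33.9 and H3K4me3 of 47.0. The sites at 1700019J19Rik and Gm1604b overlapped a PRDM9-independent H3K4me3 peak, and the others did not. G and C made up 42.3% of the Otol1 window, 53.0% of that of 1700019J19Rik, 57.3% of that of Gm32796 and 57.0% of that of Gm1604b, against a median of 53.0% over all 31396 autosomal promoter windows.

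The no-share sites had less of both marks than the 19821 sites with both shares. Their DMC1 signals ran from 7.54 to 1027, with quartiles of 17.5 and 67.3 and a median of 31.3 (order-statistic 95% interval 28.4 to 33.2), against a median of 72.7 (70.9 to 74.5) at both-share sites. The difference of medians was -1.21 on the log2 scale, or 2.32-fold lower. H3K4me3 had a median of 8.69 (8.15 to 9.70) at no-share sites and of 12.4 (12.2 to 12.6) at both-share sites, a log2 difference of -0.52. The ranges overlapped almost completely in both marks, and both differences were negative on 19 of 19 autosomes. DMC1 was lower even where H3K4me3 was alike: within 20 equal bins of H3K4me3 the no-share sites were lower by a log2 difference of -0.68, or 1.60-fold.

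Both Prdm9 alleles contributed such sites in about the proportion of their hotspots. No share was given at 487 of 12372 CAST sites, or 3.94%, and at 396 of 9281 HUM sites, or 4.27% (3.86% to 4.70%). The CAST members had a median DMC1 of 32.2, against 91.2 at CAST sites with both shares, a log2 difference of -1.50. The HUM members had 29.4 against 56.5, a difference of -0.94. For H3K4me3 the differences were -0.73 at CAST and -0.22 at HUM sites. Members of the 2 alleles were thus close to each other in DMC1, while both-share CAST sites were stronger than both-share HUM sites. At matched H3K4me3 the differences in DMC1 were -0.62 for CAST and -0.70 for HUM.

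Weak sites lacked a share more often than strong ones, but strong sites lacked it too. In the weakest 10% of sites by DMC1 (signals of 7.54 to 17.3), 214 of 2166 sites, or 9.88% (8.66% to 11.2%), had no share. The percentage came down in each following 10% and was 1.43% (0.97% to 2.03%) in the strongest, where signals were at least 352. By H3K4me3 it was 8.08% in the lowest 10% of sites and 3.19% in the highest, and it stayed between 2.59% and 3.70% over the upper 50%. The lowest 20% of all sites by DMC1 (signals up to 24.1) held 344 of the 883 members, or 38.96% (35.7% to 42.3%). The upper 50% of all sites held 226 members, or 25.6%. Of the 200 strongest sites by DMC1, 4 were members, and the strongest member ranked 10 among all 21653 sites.

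**Figure D1:**
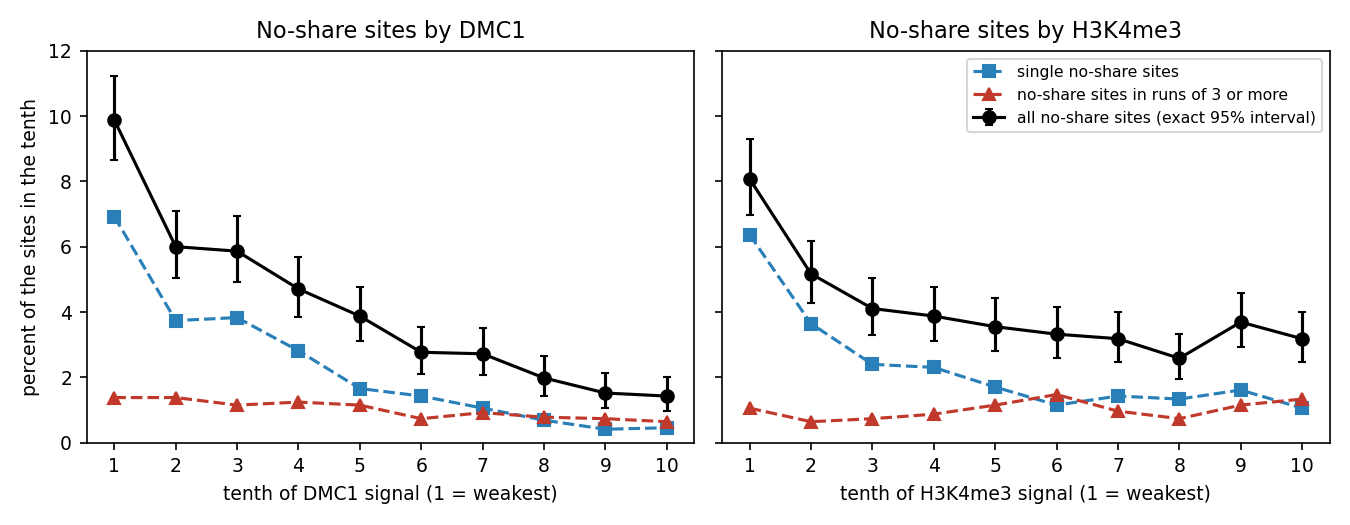
Percentage of autosomal CAST and HUM sites without any homologue share in each of 10 equal classes of DMC1 (left) and H3K4me3 (right) signal, in the authors' units; black points have exact 95% intervals, and dashed lines count single members and members in runs of at least 3. The black line falls from 9.88% to 1.43% from the weakest to the strongest class of DMC1, where members in runs stay between 0.65% and 1.39% of the sites and single members come down from 6.93% to 0.46%.

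The members lay together along the chromosomes, well above their overall share of 4.08%. After a no-share site, the next CAST or HUM site along the chromosome also had no share in 247 of 882 cases, or 28.0% (25.1% to 31.1%). After any other site it had none in 631 of 20752 cases, or 3.04% (2.81% to 3.28%). The first percentage was the higher on 19 of 19 autosomes. The lowest was on chromosome 18, where it was 8.70% against 2.44%, and the highest was on chromosome 16, with 38.8% against 3.76%. The sites in question were not packed more closely: the median distance from a member to its nearest neighbour was 36.2 kb, against 30.4 kb for the other sites.

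Closeness in the genome went with a missing share across the alleles as well. After a CAST site without a share, the next site was without one in 25.9% of cases when it was a CAST site and in 31.3% when it was a HUM site. After a HUM site the values were 28.4% for a CAST and 27.5% for a HUM site. The intervals of these 4 percentages overlapped, and after sites with a share all 4 were between 2.60% and 3.36%. The authors ascribe such neighbours to different PRDM9 proteins, so sites of either allele in the same place were without a share together.

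Strength and position were combined to see whether the runs consist of weak sites. For a first site in the weakest 10% by DMC1, the next site was without a share in 19.6% of 214 cases when the first had none, and in 2.20% when it had one. For a first site in the strongest 10%, the values were 45.2% of 31 cases (27.3% to 64.0%) and 3.47%. The strongest members therefore had a member as next site more often than the weakest did. When only sites in the upper 50% by DMC1 were placed in order, 24.0% of 225 next sites after a member were members, against 1.62% after another site.

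**Figure D2:**
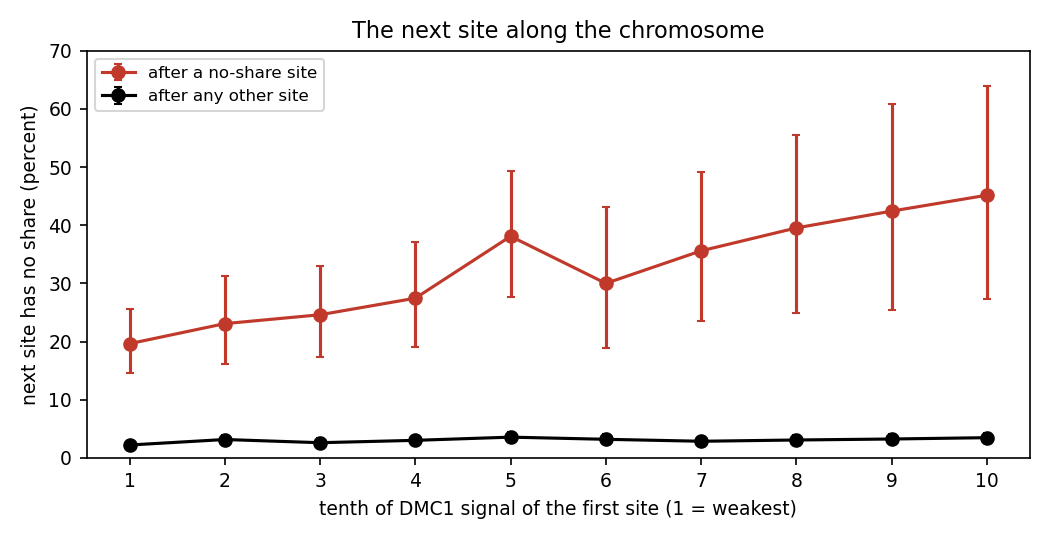
Percentage of next sites along the chromosome without any share, by the DMC1 class of the first site (10 equal classes, 1 the weakest), after a member (red) and after any other site (black), with exact 95% intervals. The red value is 19.6% in the weakest and 45.2% in the strongest class, and the black ones stay between 2.20% and 3.56%.

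The excess fell off with distance, but it was still seen beyond 200 kb. Among sites with another no-share site within 25 kb, 34.7% of 403 had no share themselves (30.1% to 39.6%). Members near each other were each counted, so these sites are not independent. The percentage was 25.1% at 25 to 50 kb, 16.4% at 50 to 100 kb, 9.91% at 100 to 200 kb and 4.64% (3.71% to 5.72%) at 200 to 400 kb. From 1600 to 3200 kb it was 1.93%; the 4.08% of all sites includes the clustered ones. When the next site lay more than 200 kb away, it lacked a share in 21.5% of 181 cases after a member (15.8% to 28.3%) and in 3.89% after another site. For a CAST site near a HUM member it was 35.1% of 94 sites within 25 kb, 12.3% at 100 to 200 kb and 7.79% (5.74% to 10.3%) at 200 to 400 kb. For a HUM site near a CAST member it was 42.2% of 83, then 12.7% and 7.07% (5.07% to 9.53%). In these values across alleles, distance ran to the nearest member of the other allele. A member of the same allele could lie nearer, so they do not measure distance to any member. In the upper 50% by DMC1, 226 of 10826 sites were members. With both sites in that set the percentage was 8.72% (5.78% to 12.5%) at 200 to 400 kb and 1.26% at 1600 to 3200 kb. Members outside that set could lie nearer. Sites with a share in 1 mark only were also more common near members: they made up 9.43% of sites within 25 kb of a member, against 3.40% at 1600 to 3200 kb and 4.38% of all sites.

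**Figure D3:**
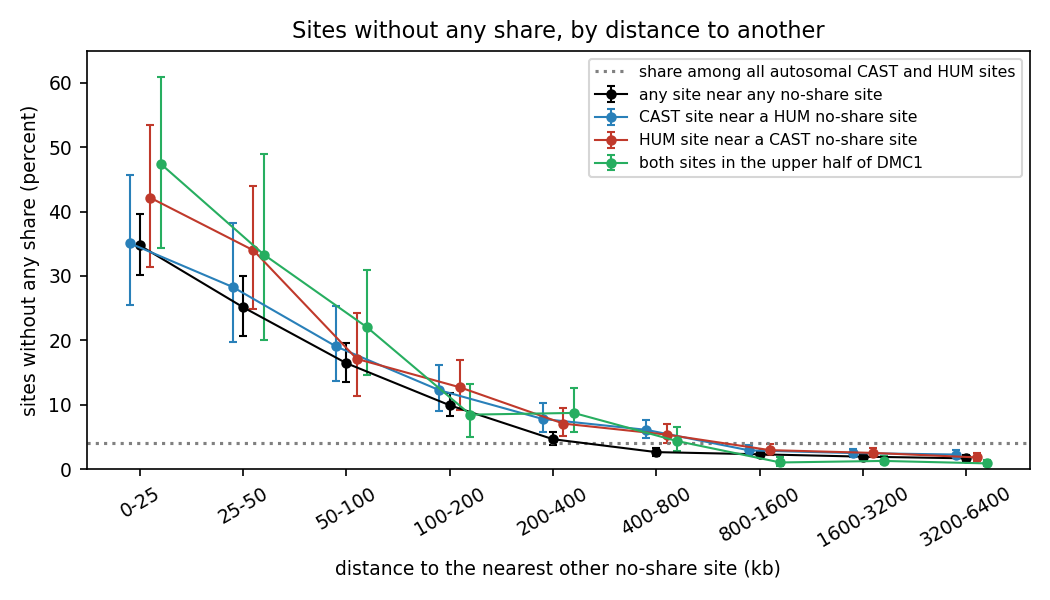
Percentage of sites without any share by the distance (kb) to the nearest other such site, with exact 95% intervals. Colours give all sites, sites of 1 allele near a member of the other, and pairs in the upper 50% by DMC1. Except for all sites, distance is to the nearest member of the other allele or of the upper 50%. The dotted line marks the 4.08% of all sites, not the share of each set. All 4 sets start between 34.7% and 47.5% within 25 kb and come down to 2.26% or less at 3200 to 6400 kb.

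By their neighbours the members fell into single sites, pairs and stretches, a stretch being a run of at least 3 consecutive no-share sites among CAST and HUM sites in genome order. There were 499 single sites (56.5%), 164 sites in 82 pairs (18.6%) and 220 sites in 55 stretches (24.9%). Of the stretches, 31 had 3 sites, 4 had 4, 11 had 5, 7 had 6 and 2 had 7. They lay on 17 of the 19 autosomes, and chromosomes 5 and 18 had none. Their spans ran from 13.5 kb to 3377 kb with a median of 233 kb, and 18.9 Mb in all. In 43 of the 55, CAST and HUM sites were mixed, while 8 held only CAST and 4 only HUM sites.

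Single sites were the weakest of the 3 kinds, and stretches resembled ordinary hotspots in H3K4me3. The median DMC1 was 25.9 (23.6 to 28.3) at single sites, 39.4 (31.4 to 52.9) in pairs and 44.5 (37.5 to 58.4) in stretches. The median H3K4me3 was 6.56 (5.86 to 7.39), 11.2 (9.34 to 14.6) and 12.7 (11.2 to 14.3) in the same order, against 12.4 at both-share sites. The log2 difference between stretch and single sites was 0.78 for DMC1 and 0.96 for H3K4me3. Against both-share sites, the stretch sites differed by 0.04 in H3K4me3 and by -0.71 in DMC1. At matched H3K4me3 all 3 kinds were below both-share sites in DMC1, with log2 differences of -0.70 for single sites, -0.72 for pairs and -0.65 for stretches. Compared directly with single sites at matched H3K4me3, stretch sites were higher by 0.26.

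**Figure D4:**
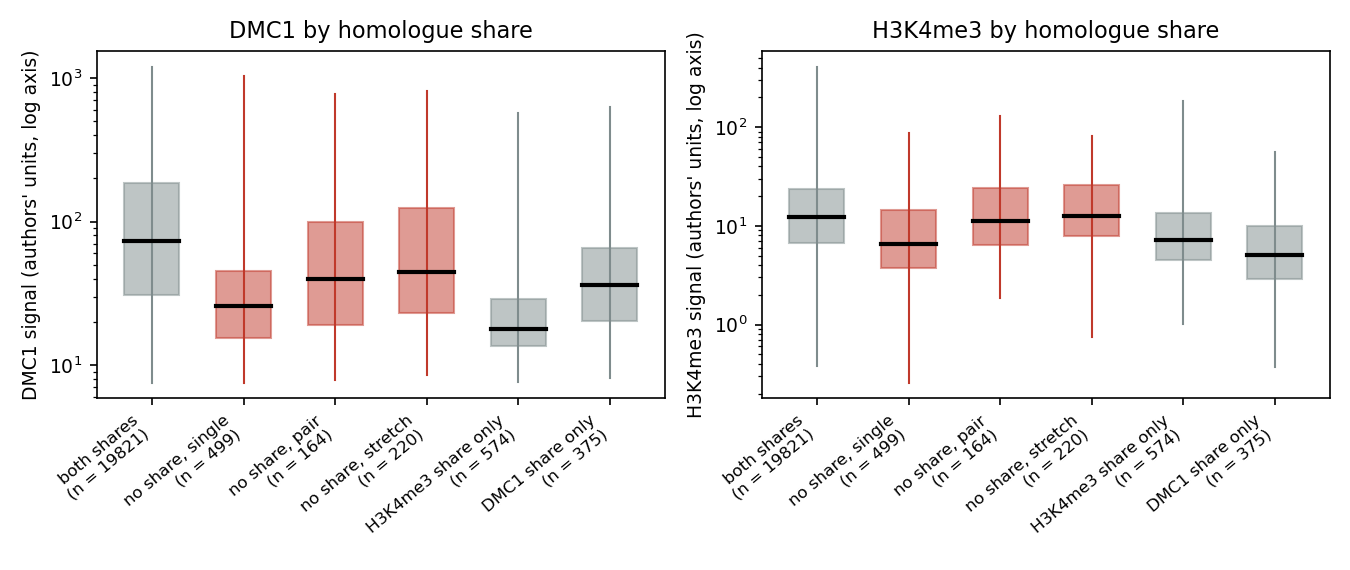
DMC1 (left) and H3K4me3 (right) signal in the authors' units on log axes for sites with both shares, the 3 kinds of no-share site (red) and sites with a share in 1 mark; boxes span the quartiles, black bars are medians and lines run from the lowest to the highest site. Single members sit lowest of the red boxes in both marks, and the H3K4me3 median of stretch members, 12.7, is at the level of both-share sites, 12.4.

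The 2 descriptions, weak and clustered, divided the members as follows. Clustered here means in a pair or stretch, so a single site may still lie near a member beyond a site with a share. Single sites in the lowest 20% by DMC1 were 231 of 883, or 26.2%. Members in a pair or stretch but above the lowest 20% were 271, or 30.7%. Both descriptions held for 113 (12.8%), and neither held for 268 (30.4%). The part in the lowest 20% was 46.3% among single sites (41.9% to 50.8%) and 27.3% among stretch sites (21.5% to 33.7%). The upper 50% by DMC1 held 17.6% of the single and 37.7% of the stretch sites. Of the single sites, 94 of 499 (18.8%) stood beside a site that lacked 1 of its shares, which was true of 7.92% of both-share sites.

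Sites that lack only 1 share had other levels than the members. The 574 with an H3K4me3 share but no DMC1 share had a median DMC1 of 17.8, below that of the members, and 67.9% of them were in the lowest 20% by DMC1. Their median H3K4me3, 7.11, was also below the 8.69 of the members. The 375 with a DMC1 share but no H3K4me3 share had a median H3K4me3 of 5.07, the lowest of the classes, and a median DMC1 of 36.0. Both classes were below both-share sites in both marks. At matched H3K4me3, the log2 difference in DMC1 from both-share sites was -1.34 for those without a DMC1 share. It was 0.08 for those without an H3K4me3 share, so these were not lower in DMC1 where H3K4me3 was alike. The next site after a site of these classes was of the same class in 4.70% and 3.48% of cases, against 2.43% and 1.60% after a both-share site. After them, a site without any share came next in 5.92% and 8.56% of cases.

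The stretches with the most members crossed gene neighbourhoods of many functions, and each held sites of very unequal DMC1 signal. The first, with 7 members over 844 kb of chromosome 6, ran from Exoc6b, a subunit of the exocyst that tethers secretory vesicles, through Sfxn5 to Cct7, a subunit of the cytosolic chaperonin. Its DMC1 signals in genome order, from position 84623421 to 85467413 (mm10), were 29.4, 249.6, 16.4, 27.8, 43.4, 201 and 13.2. The sites of 16.4 and 43.4 were HUM sites and the other 5 CAST sites, and H3K4me3 ran from 2.73 to 51.4. The second and the sixth were strong and the rest weak, and all 7 lay inside genes.

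The second stretch had 7 members in only 278 kb of chromosome 11 (positions 72910248 to 73188079), in a gene-dense part with P2rx1 and P2rx5, which encode ATP-gated ion channels, Itgae, an integrin of tissue lymphocytes, and Ctns, the lysosomal cystine transporter. Their DMC1 signals were 229, 23.6, 87.7, 22.8, 55.3, 72.7 and 66.8, the third and the last being HUM sites. The third stretch had 6 members over 590 kb of chromosome 1 (160341612 to 160931873), 5 of them inside Rabgap1l, a regulator of Rab GTPases, and 1 in Rc3h1, an RNA-binding repressor. Their DMC1 signals were 38.8, 339, 601, 189, 285 and 23.2, with H3K4me3 of 7.25 to 55.8. Here 4 of the 6 members were well above the median of both-share sites, and all 5 CAST and HUM hotspots of Rabgap1l were members.

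Stretches 4 to 7 were made mostly of weak sites beside 1 or 2 strong ones. On chromosome 2 (31509687 to 32025399), 5 HUM sites and 1 CAST site lay in Ass1, a urea cycle enzyme, Abl1, a tyrosine kinase, Fibcd1 and Nup214, a nuclear pore protein. Their DMC1 signals were 12.7 to 58.4 except for 208 at the site in Fibcd1. On chromosome 3 (59055207 to 59486819), 6 members in and beyond Med12l, a Mediator subunit, had DMC1 of 668 and 148 at the first and the second site and 16.3 to 26.96 at the rest. On chromosome 16 (38272767 to 38700001) the site in Nr1i2, the xenobiotic receptor PXR, had a DMC1 signal of 439, and 5 sites as far as Arhgap31, among them 2 in Cd80, a costimulatory ligand of T cells, had 16.5 to 42.5. On chromosome 4 (41325238 to 41704689) the 6 members near Ubap1 and Kif24, a kinesin, had 21.1 to 152.

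The remaining 3 of these 10 were unlike in strength and spacing. On chromosome 8 (111075903 to 111325584), 5 of 6 members had DMC1 of 142 to 236, at Glg1, Rfwd3, a ubiquitin ligase of DNA repair, and Mlkl, the effector of necroptosis. On chromosome 15 (89028220 to 89130977), 6 members shared 103 kb, 3 of them in Mov10l1, a helicase needed for piRNA production in male germ cells, with DMC1 of 26.9, 69.9 and 242. The last stretch, on chromosome 2 (87350690 to 90727573), had 5 members over 3377 kb. It covered an array of olfactory receptor genes. Its end was a strong CAST site in Nup160, a nuclear pore protein, with DMC1 of 812 and H3K4me3 of 79.7. That site lay at 90727573 and the member before it at 88833928. Runs take no account of distance, and by definition none holds a CAST or HUM hotspot with a share.

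**Figure D5:**
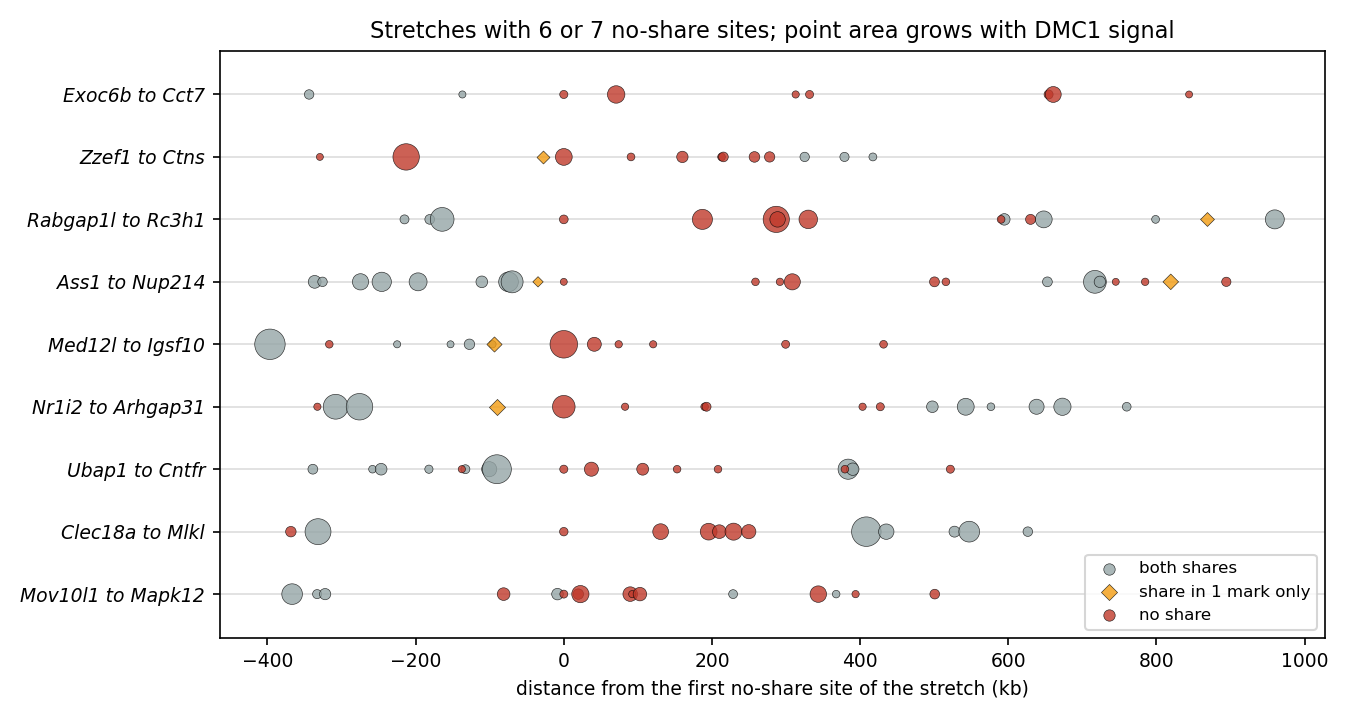
CAST and HUM sites in and around the 9 stretches with 6 or 7 members, placed by distance (kb) from the stretch's first member and named by the first and last gene each stretch crosses; red points have no share, orange points a share in 1 mark only and grey points both, and point area grows with DMC1 signal. Large and small red points stand in the same stretch, as in Exoc6b to Cct7 with signals of 13.2 to 249.6.

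Compared with the nearest both-share sites, the stretches were usually lower in DMC1. Against both-share sites as a whole, the log2 differences of DMC1 medians were -0.71 for stretch sites, -1.49 for single sites and -0.88 for pairs. A lower DMC1 than at both-share sites was therefore not particular to stretches. The median DMC1 of a stretch was below that of the nearest both-share sites, 2 on each side (on 1 side only for 2 stretches), in 41 of 55 stretches and above it in 14, with a median log2 difference of -1.29. For H3K4me3 it was below in 32 and above in 23, with a median of -0.35. Sites of the classes that the authors call UNK and KO, which the choice of members did not use, also lay in the stretches. Of 12 UNK sites inside, 9 had no share in either mark, or 75% (42.8% to 94.5%), against 8.51% of 1904 outside. The 1 KO site inside had none, as had 68.9% of 61 outside. Of these 13 sites, 4 were in 1 stretch on chromosome 9 and all lacked a share, and of the other 9 there were 6 that did.

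Sites with both shares that bordered a stretch had a higher median DMC1 than those farther off. The 66 both-share sites within 100 kb of a stretch had a median DMC1 of 116, against 72.4 at the 19444 both-share sites more than 500 kb from any stretch. Of the former 45 were CAST sites, with medians of 119 against 91.1, and 21 were HUM sites, with 81.0 against 56.4. No interval was computed for these medians. An H3K4me3 share between 0.3 and 0.7, that is marking of both homologues, was found at 71.2% of the former (58.7% to 81.7%) and 61.5% of the latter (60.9% to 62.2%). For the DMC1 share the percentages were 56.1% (43.3% to 68.3%) and 46.4%, but the alleles went opposite ways, with 64.4% against 49.2% at CAST and 38.1% against 42.6% at HUM sites. With 66 sites these intervals overlap, so the differences were not resolved. Of the 86 sites with any share within 100 kb, 20 lacked 1 share, or 23.3%, against 4.48% beyond 500 kb.

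The strongest members of each allele lay in or near genes of varied function. The highest DMC1 among CAST members was 1027, at a single site inside Atxn7l1 (chromosome 12, 33365262; H3K4me3 64.3). It was followed by the site in Nup160 (812), by 789.8 at a stretch site 169 kb from Phf3 (chromosome 1, 30633402), by 772 in a pair 9.39 kb from Iigp1, an interferon-induced GTPase (chromosome 18, 60364225), and by the Med12l site (668). Among HUM members the highest were 702 in Nup107, a nuclear pore scaffold protein (chromosome 10, 117771499), 526 beside Clec5a, a myeloid lectin (chromosome 6, 40588470), and 469 at a site 19.5 kb from Ap1m1, a clathrin adaptor (chromosome 8, 72276851). Sites in C2cd5 (415) and in Akap13, a protein kinase A anchor (401), followed. Of these 10 sites, the 5 strongest of each allele, 5 were in stretches, 1 was in a pair and 4 were single.

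Single sites were not all weak. Beside Atxn7l1 and Ap1m1, the 5 strongest included CAST sites in Nap1l1, a histone chaperone (chromosome 10, 111477198; DMC1 613), and 2 in Rftn1, a lipid raft protein (chromosome 17, 50163272 and 50105627; 522 and 479). Both Rftn1 sites count as single because a site with a share lies between them. In the same way, the Atxn7l1 site lay near a stretch that starts at 33410711. The Nap1l1 site lay near another single member, at 111414342. The highest H3K4me3 away from PRDM9-independent peaks was 92.5 at the site near Iigp1, followed by 87.7 at a single HUM site 89.6 kb from Tyw3 (chromosome 3, 154486905), which had a DMC1 of only 115. The Nup160 site (79.7), a CAST site 151 kb from Lsamp (chromosome 16, 39833654; 71.0) and the Nup107 site (70.3) came next. Most of these sites were thus high in both marks while neither mark had a share.

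Some genes held several members. A member lay inside 397 of the 5938 genes that hold a CAST or HUM site, at least 2 lay inside 67 and at least 3 inside 16. Lsamp, an adhesion protein of neurons that spans 2197 kb on chromosome 16, had 7 members among its 9 sites, with DMC1 of 11.2 to 248. Rabgap1l had 5 of 5, and Hdac9, a histone deacetylase, had 5 of 12 with 8.60 to 138. All 4 sites were members in Exoc6b, in Magi3, a junctional scaffold protein (30.3 to 261), and in Med12l. Atrnl1 had 4 of 10 (32.5 to 193) and Cdh13, the T-cadherin, 4 of 11 with close values of 94.6 to 134. Of the 8 genes with 3 members, Nup107 had 3 of 3, Kazn and Mov10l1 had 3 of 4 each, and the rest had 33.3% to 60% of their sites.

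The members lay inside genes about as often as other sites. Of the members 55.3% (51.9% to 58.6%) lay inside a protein-coding gene, against 54.4% of both-share sites and 54.4% of all CAST and HUM sites. In stretches it was 61.8% (55.0% to 68.3%), and at single sites 53.7% (49.2% to 58.1%). Overlap with a PRDM9-independent H3K4me3 peak, found at 7.57% of all CAST and HUM sites, was less common among the members, at 40 of 883 or 4.53% (3.26% to 6.12%), against 7.65% of both-share sites. It was 2.61% (1.39% to 4.41%) at single sites, 7.93% in pairs and 6.36% in stretches. Sites with only an H3K4me3 share overlapped such peaks in 13.9% of cases, and sites with only a DMC1 share in 1.07%.

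In some clustered gene families, several of the CAST and HUM sites had no share. Within 5 kb of an olfactory receptor gene there were 39 CAST or HUM sites, of which 6, or 15.4%, were members, against 4.08% of all sites. Among them were the sites near Olfr153 (DMC1 24.5) and Olfr1205 (12.3). Near vomeronasal receptors 2 of 13 were members, in Vmn2r20 (139) and beside Vmn1r213 (42.9), and near defensins, antimicrobial peptides, 3 of 7. The 3 defensin sites were CAST sites of 1 stretch on chromosome 8 (21200041 to 21663890), with DMC1 of 13.1, 10.1 and 14.95, beside Defa41, Defa5 and Defa34. C-type lectin genes had 2 of 11, cytochromes P450 2 of 22 and serpins 1 of 12. Zinc finger genes named Zfp had 3 of 154, or 1.95%. No interval was computed for these small counts, so whether they differ from 4.08% beyond counting error is not given. Neither kallikreins (4 sites), the MHC genes (5) nor keratins (10) had a member within 5 kb, where 3 counts of the total, the limit used here for a count of 0, would be 75%, 60% and 30%, and Speer genes had no site there. Reads from near-identical copies of a gene can be misplaced in such families, and the part this has in these counts was not tested.

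Genes of meiotic recombination held none of the members. The list of 35 symbols, from Spo11, which makes the breaks, and Dmc1 to the synaptonemal complex gene Sycp1, matched in full and stands for 34 autosomal genes, and the 25 CAST and HUM sites within 5 kb of them all had at least 1 share. By the limit of 3 counts, 0 of 25 allows a share of up to 12%, which includes the 4.08% of all sites.

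Among chromosomes the percentage of members ran from 1.74% (1.08% to 2.65%) on chromosome 7 and 2.04% on chromosome 5 to 6.11% on chromosome 17 and 6.32% (4.53% to 8.54%) on chromosome 19. Without the stretch sites the range was 1.50% to 5.56%. In fixed windows of 1 Mb with at least 3 sites, 1628 of 2117 (76.9%) held no member. Windows in which at least 50% of the sites were members numbered 37, or 1.75% of windows. They held 265 sites, of which 154 were members, 17.4% of all members. By the rule that chose them, such windows hold a larger part of the members than of the sites. The most members in 1 window were 9, on chromosomes 2 (of 17 sites), 3 (of 18) and 15 (of 19).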

How the data were processed

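DMC1 and H3K4me3 ChIP-seq values of hybrid testis were analysed, 1 library per assay; the MNase-seq library of the series was not used here. The submitters' processing notes name BWA for both libraries (0.7.15 for the H3K4me3 one) and the mm10 build. Per the file headers, the deposited table gives a DMC1 signal from the authors' peak caller, an H3K4me3 signal estimated at the same site from reads credited to Li and colleagues (not stated to be the reads of the series' own H3K4me3 library), a B6 fraction for each mark, the inferred Prdm9 allele, and whether the site overlaps a PRDM9-independent peak. How the signals were scaled to depth, and the minimum behind a fraction, are not given in the sources used here. Of the H3K4me3 values at CAST and HUM autosomal sites, 60.5% are shared with another such site (59.0% at members).

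Sites were ordered along each chromosome and runs counted with Python 3.11.15, pandas 2.3.3 and scipy 1.17.1. Signals were compared as log2 medians without a pseudocount, and shares have exact Clopper-Pearson 95% intervals (for a count of 0, the limit of 3 counts of the total). The scripts were tested on simulated data. Genes came from RefSeq (GRCm38.p6) as starts and ends only, so exons and introns were not assigned. The members, gene lists and alternatives were chosen with earlier results of these data known. Named were the 10 runs with most members (the tenth is the longest of 11 with 5), the 5 strongest members by allele, among single sites and by H3K4me3, and the 10 genes with most members, ties going to the higher percentage of the gene's sites (Kazn and Mov10l1 were level in both). The named families and the division into weak and clustered members are descriptions.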

Additional observations from a re-analysis of the deposited data

How the results depend on the processing

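No paired analysis was possible because each assay has 1 library. Of 56 recomputed values, 31 stayed within the interval of the value reported and 25 moved outside it. No difference changed sign, and plain percentages of sites could not. Some settings, such as another run length or window threshold, change what is counted. For log2 differences the interval used was the order-statistic one of the members' median. The log2 difference in DMC1 was -1.03 between means, -1.50 for CAST sites, -0.94 for HUM sites and -1.04 with the smallest value added first; that in H3K4me3 was -0.73 for CAST and -0.22 for HUM sites, and that at matched H3K4me3 was -0.59 with the smallest value added. The percentage without a share was 6.73% by DMC1 alone, 5.81% by H3K4me3 alone and 4.64% with UNK and KO sites. After a no-share site the next lacked one in 23.9% of pairs over 50 kb apart, 24.0% in the upper 50% by DMC1 and 24.6% by the DMC1 share alone. After any other site these were 3.47%, 1.62% and 5.42%, with 3.51% including UNK and KO sites and 4.56% by the H3K4me3 share alone. Runs of at least 2 held 43.5% of members, runs of at least 5 12.6%, and runs of 3 within the upper 50% by DMC1 19.0%. Windows of which at least 50% were members held 24.6% with 0.5 Mb, 7.02% with 2 Mb, 12.2% with at least 5 sites and 3.62% at a threshold of 75%; the cause was not tested. The 37 windows behind the reported value are few. The read depth behind a site is unknown, so no limit from depth can be given.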

Other observations

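Sites outside the 883 also lacked both shares. The animals were males, which carry a single X, so a share at an X site does not compare homologues. On the X, 146 of 860 CAST and HUM sites had none, or 17.0% (exact 95% interval 14.5% to 19.7%), with a median DMC1 of 29.4 against 135 at X sites with both shares. The next X site after one of them was also without a share in 41.8% of 146 cases, against 11.9% after another site. Of 1916 autosomal UNK sites, 171 had no share (8.92%), and these had a median DMC1 of 12.3. Of 62 autosomal KO sites 43 had none (69.4%), with a median H3K4me3 of 1.44.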
